A study of Mus musculus with 14 samples.

Results

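The Wnt family genes described here were the 57 genes, of 39179 in the differentiation table of Ocy454 cells, whose symbols name a Wnt ligand, a Frizzled receptor, a Dickkopf or secreted Frizzled-related protein, an R-spondin or its receptor, together with a fixed set of coreceptors, antagonists, nuclear effectors and feedback targets. They comprised 19 Wnt ligands, 10 Frizzled receptors, the 2 coreceptors *Lrp5* and *Lrp6*, 4 R-spondins, the 3 R-spondin receptors *Lgr4*, *Lgr5* and *Lgr6*, 10 antagonists (*Dkk1* to *Dkk4*, *Dkkl1*, *Sfrp1*, *Sfrp2*, *Sfrp4*, *Sfrp5* and *Wif1*), 5 nuclear effectors (*Ctnnb1*, *Lef1*, *Tcf7*, *Tcf7l1* and *Tcf7l2*) and 4 feedback targets (*Axin2*, *Nkd1*, *Nkd2* and *Notum*). Members were taken by name with no threshold on a measured value, although the family was chosen with earlier results of these data known. All 57 were also found by gene identifier in the sorted-cell data.

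RNA was sequenced in 2 experiments on Ocy454 cells, a mouse osteocyte-like line in which a temperature-sensitive large T antigen keeps cells dividing at 33 °C. In the first, cells were moved to 37 °C and collected on days 1, 7, 10 and 14, with 2 biologic replicates per day. In the second, cells kept for 17 days at 37 °C were stained for surface CD61, the integrin beta-3 protein, and the 10% of live cells with the most (CD61high) and the 10% with the least (CD61low) were collected, with 3 replicates of each. By the study's methods, 3 independent groups of cells went into the sort, and both gates were taken from them. All groups were otherwise untreated, and all carried the same large T antigen transgene. Both experiments used 1 immortalized line, so the replicates measure the spread between cultures or sorts of that line.

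Canonical Wnt ligands bind a Frizzled receptor together with LRP5 or LRP6, which halts the breakdown of beta-catenin and lets it act with TCF and LEF proteins on target genes. R-spondins strengthen the signal through LGR receptors. Sclerostin and Dickkopf proteins such as DKK1 block the coreceptors, whereas SFRP and WIF1 proteins bind the ligands themselves. In bone the pathway drives bone formation, and osteocytes are the main source of sclerostin, the product of *Sost*.

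Libraries of the differentiation experiment held 27518605 to 34311238 reads on genes and those of the sort held 18815602 to 19220064 estimated counts. A gene with 0 counts could thus still be present at up to 0.109 CPM (counts scaled to a common library total) in the former and 0.176 CPM on the TMM scale used for the latter, from counting error alone. *Itgb3*, the gene of the sorted protein CD61, was at 5.65 ± 0.408 CPM in CD61low and 111 ± 16.4 CPM in CD61high cells (SD, n = 3). Osteoblast and osteocyte markers were abundant in all 14 libraries, with 13 to 16 of 18 above 1 CPM in each group, although *Fgf23* had no reads on any day and *Mepe* and *Sost* had none on day 1. Their summed level was 28087 to 34305 CPM in CD61low and 78889 to 85047 CPM in CD61high libraries, and 51833 to 67285 CPM over the 4 days. Most of this sum was *Col1a1* and *Col1a2*, at means of 17664 and 11124 CPM in CD61low and 44785 and 28697 CPM in CD61high cells. *Pdpn* was the only marker of this list with a lower mean in CD61high cells, at 15.5 ± 0.599 CPM in CD61low and 11.1 ± 1.41 in CD61high cells (SD, n = 3). Markers of other cell types moved as well. The summed level of 9 chondrocyte markers was 39.5 to 48.8 CPM in CD61low and 101 to 118 CPM in CD61high libraries, with *Sox9* at 36.7 ± 4.09 and 94.5 ± 6.54 CPM (SD, n = 3), and was 71.0 to 124 CPM over the 4 days. Of 7 endothelial markers only *Vwf* exceeded 1 CPM in any group, at 0.906 ± 0.305 CPM on day 1, 127 ± 5.58 on day 10 and 18.5 ± 0.765 on day 14 (SD, n = 2), and at 18 ± 3.14 in CD61low and 80.3 ± 9.77 CPM in CD61high cells (SD, n = 3). Of 7 skeletal muscle markers only *Acta1* and *Des* did, and *Acta1* was at 2.12 ± 0.0692 CPM on day 1 and 24 ± 1.44 on day 14 (SD, n = 2), and at 17.9 ± 0.675 and 34.4 ± 6.67 CPM in CD61low and CD61high cells (SD, n = 3). Of 10 macrophage markers only *Cd68* and *Fcer1g* exceeded 1 CPM, with a summed level of 14 to 16.8 CPM in CD61low and 8.88 to 9.97 CPM in CD61high libraries. Of 8 adipocyte markers only *Adipor2* exceeded 1 CPM, at 99.5 ± 1.52 CPM on day 1 and 162 ± 5.4 on day 14 (SD, n = 2). It was at 79 ± 1.65 CPM in CD61low and 158 ± 4.61 in CD61high cells (SD, n = 3). The summed level of 8 proliferation markers was 904 to 1225 CPM in CD61low and 1359 to 1645 CPM in CD61high cells, and 1279 to 1487 CPM over the 4 days. The part that these shifts in markers play in the results below was not tested.

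Which members did these cells express? Of the 57, 40 exceeded 1 CPM in at least 1 differentiation library and were tested there, and 36 of these also passed the filter of the sort, which asked that each of the 6 libraries hold 5 or more normalized counts. The other 17 passed neither filter and did not exceed 0.689 CPM in any differentiation library. *Wnt2*, *Wnt3*, *Fzd10*, *Dkk4* and *Sfrp1* had no read in any of the 8 differentiation libraries, and they were also among 12 members with no count in the 6 sorted libraries. *Sfrp4*, *Rspo1*, *Rspo4*, *Dkk2* and *Wnt16* were likewise below the filter.

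Levels of different genes were compared per kilobase of gene length. On day 14 beta-catenin itself (*Ctnnb1*) led the members at 521 ± 9.34 CPM per kilobase (SD, n = 2), followed by *Tcf7* at 116 ± 1.67 and *Wif1* at 89.7 ± 3.61. The most abundant ligand transcript was *Wnt10b* at 38.4 ± 0.398 CPM per kilobase, above *Wnt6* at 11.8 ± 0.143 and *Wnt5a* at 3.84 ± 0.505. *Fzd5* at 37 ± 0.101 exceeded *Fzd1* at 19.9 ± 0.891 CPM per kilobase on day 14, whereas on day 1 the order was the reverse, with *Fzd1* at 41 ± 0.177 and *Fzd5* at 13.5 ± 0.169. The coreceptors changed places in the same way. *Lrp6* stood at 21.3 ± 1.22 and *Lrp5* at 6.29 ± 0.223 CPM per kilobase on day 1, against 15.4 ± 1.54 and 37.9 ± 0.60 on day 14. *Lgr6* moved from 3.32 ± 0.102 to 41.3 ± 1.87 CPM per kilobase and passed *Lgr4*, which was at 6.25 ± 0.106 on day 1 and 7.94 ± 0.227 on day 14.

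**Figure D1:**
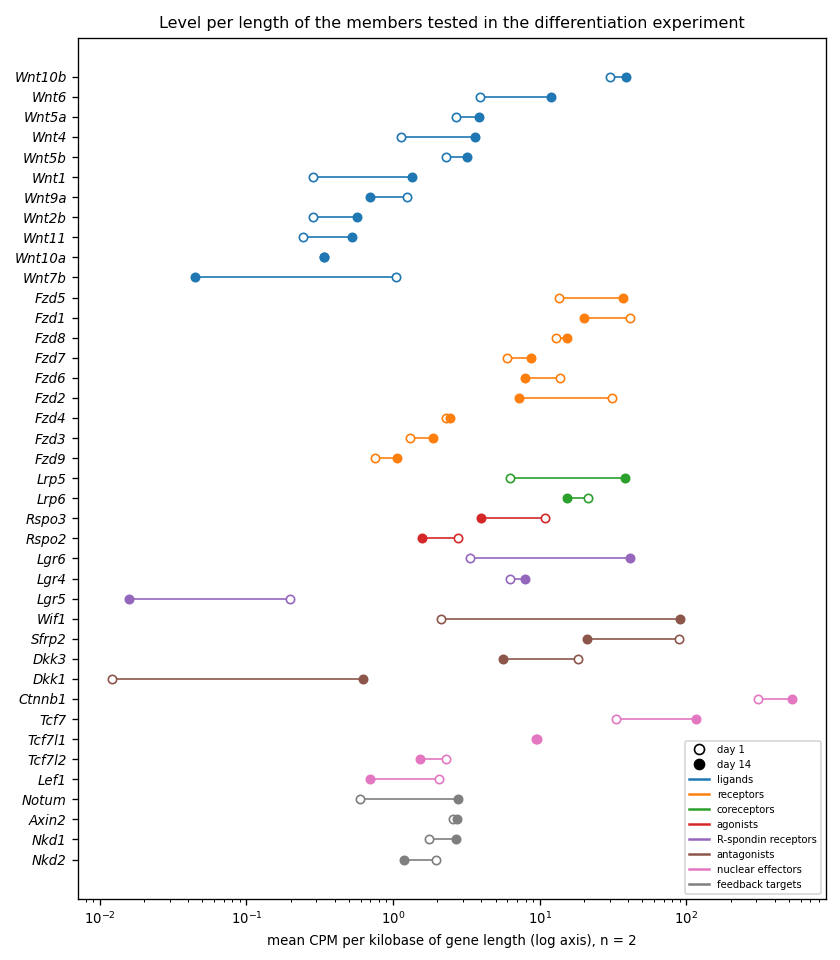
Mean CPM per kilobase of gene length (log axis, n = 2) of the 40 tested members on day 1 (open circles) and day 14 (filled circles), grouped and coloured by role. *Lrp5*, *Lgr6*, *Wif1* and *Tcf7* lie further right on day 14, whereas *Sfrp2*, *Fzd2*, *Lef1* and *Wnt7b* lie further left.

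How did the family change during differentiation? Between day 1 and day 14, 10 of the 40 tested members rose and 8 fell (limma, adjusted p below 0.01 and a Log2FC past 1 in size). Among all 12725 tested genes, 7.51% rose and 5.9% fell by the same rule. The median Log2FC was 0.33 over the members and -0.03 over all genes. *Dkk1* and *Lgr5* passed the filter only through the day on which they were highest and so had to differ. Among genes above 1 CPM on more than 1 day, 9 of 38 members rose and 7 fell, beside 7.52% and 5.7% of all 12258 such genes. The members that rose were *Wif1*, *Lgr6*, *Lrp5*, *Tcf7*, *Notum*, *Wnt4*, *Wnt6*, *Fzd5*, *Wnt1* and *Dkk1*, and those that fell were *Wnt7b*, *Fzd2*, *Sfrp2*, *Dkk3*, *Lef1*, *Rspo3*, *Lgr5* and *Fzd1*. Ligands, receptors, antagonists and nuclear effectors were each represented on both sides. Log2FC values of this experiment are on the log2(CPM + 1) scale, which understates the change of genes near or below 1 CPM.

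The first step held the most calls. From day 1 to day 7, 9 members rose and 7 fell, against 4.49% and 4.62% of all genes. Among genes above 1 CPM on more than 1 day, which leaves out *Lgr5*, 9 rose and 6 fell, against 4.63% and 4.4%. From day 7 to day 10, 4 rose (*Lgr6*, *Notum*, *Rspo3* and *Wnt4*) and 4 fell (*Wif1*, *Fzd2*, *Wnt7b* and *Wnt11*), where 1.43% and 0.786% of all genes did. From day 10 to day 14, only *Wif1* rose and *Wnt4*, *Notum* and *Lef1* fell, with 2.09% and 0.872% of all genes called. Some of these calls were close to the fold threshold. The fall of *Lgr5* to day 7 was -1.02 and came to -0.885 without replicate 1 of day 1, -0.989 without replicate 2 of day 7 and -0.9995 under TMM scaling, and that of *Wnt7b* was -0.9993 and passed in 4 alternatives. From day 7 to day 10 *Wnt7b* came to -0.99 without replicate 1 of day 7 and -0.94 without replicate 2 of day 10, and in the last step the rise of *Wif1* came to 0.987 without replicate 2 of day 14. With a pseudocount of 0.1, 20 members passed in the first step, 10 in the second and 5 in the last, beside 12.8%, 4.34% and 5.27% of all genes in either direction. With edgeR on recovered reads 21, 9 and 5 did, beside 12.9%, 4.32% and 5.74%. Both alternatives include *Dkk1* (higher) and *Lgr5* (lower) in the first step and *Dkk1* (higher) in the last, genes that exceeded the filter on 1 day alone. The mean CPM was highest on day 1 for 15 of the 40 members, on day 7 for 7, on day 10 for 10 and on day 14 for 8. Neighbouring comparisons share the libraries of the day between them, so that a high day raises one step and lowers the next. Each library pools many cells, and fewer cells expressing a gene cannot be told apart from less of its RNA per cell.

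Of the 11 tested ligands, 3 rose and 1 fell between day 1 and day 14, beside 7.51% and 5.9% of all genes, so that 1 lower call is near the background. The count depends on the pseudocount of 1, since *Wnt11* and *Wnt2b* also rose with a pseudocount of 0.1 (Log2FC 1.04 for each) and in edgeR on recovered reads (Log2FC 1.13 and 1.03). *Wnt4*, a ligand known from kidney and bone development, was at 4.63 and 4.8 CPM on day 1, 11.4 and 11.8 on day 7, 35.2 and 38.3 on day 10 and 15 and 15.4 on day 14. The libraries of day 10 were thus the highest, and those of day 14 still lay above all of day 1 (3.22-fold, Log2FC 1.5, SE 0.08, adjusted p = 1.0e-14). *Wnt6* measured 7.29 and 8.81 CPM on day 1, 30.2 and 30.7 on day 7, 32.8 and 34.4 on day 10 and 24.2 and 24.6 on day 14, a 3.03-fold rise over the whole course (Log2FC 1.5, SE 0.08, adjusted p = 2.1e-15). It was near its highest level by day 7 and did not pass the fold threshold in either later step. *Wnt1*, whose loss causes brittle bone in people and mice, rose from 0.62 and 0.721 CPM on day 1 through 1.86 and 1.8 on day 7 and 2.3 and 2.03 on day 10 to 2.91 and 3.49 on day 14 (Log2FC 1.33, SE 0.14, adjusted p = 2.1e-09). *Wnt1* overlaps *Wnt10b* on the opposite strand, and *Wnt10b* reached 142.6 CPM. The strand setting of the counting is not given in the sources used here, and without strand the counts of the pair could be affected.

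*Wnt7b* was the ligand that fell. Its libraries stood at 4.87 and 4.36 CPM on day 1, 1.89 and 1.72 on day 7, 0.46 and 0.29 on day 10 and 0.175 and 0.218 on day 14, with no overlap between any neighbouring days, and the mean fell 23.5-fold (Log2FC -2.23, SE 0.14, adjusted p = 1.7e-13). *Wnt11*, a ligand mostly linked to beta-catenin-independent signalling, peaked early at 5.79 and 6.41 CPM on day 7, from 1.06 and 0.815 on day 1, and returned to 2.5 and 2.26 on day 10 and 1.81 and 2.25 on day 14. Its rise to day 7 (Log2FC 1.87, SE 0.13, adjusted p = 2.6e-12) and fall to day 10 (Log2FC -1.07, SE 0.13, adjusted p = 1.7e-07) passed the thresholds and the difference between days 1 and 14 did not reach the fold on this scale (Log2FC 0.64, SE 0.13, adjusted p = 1.1e-04). *Wnt2b* was at 1.42 and 0.596 CPM on day 1 and 2.22 and 1.82 on day 14 (Log2FC 0.62, SE 0.16, adjusted p = 0.0014). *Wnt9a* went the other way over the first step, from 3.98 and 4.61 to 0.93 and 1.2 CPM (Log2FC -1.36, SE 0.13, adjusted p = 1.3e-09), and stood at 2.56 and 2.22 CPM on day 14. The most abundant ligand, *Wnt10b*, moved from 89.6 and 93.5 CPM on day 1 to 118 and 117 on day 14, a 1.28-fold difference below the threshold on fold (Log2FC 0.36, SE 0.04, adjusted p = 1.1e-08).

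The Frizzled receptors divided. *Fzd5* rose from 93.9 and 92.2 CPM on day 1 to 220.2 and 229 on day 7, 240.0 and 238 on day 10 and 255 and 256 on day 14 (2.75-fold from day 1 to day 14, Log2FC 1.45, SE 0.04, adjusted p = 3.1e-22). *Fzd2* fell from 116 and 111 CPM on day 1 to 36.5 and 37.4 on day 7 and 16.4 and 17.5 on day 10, and was at 24.7 and 27.4 on day 14, a 4.35-fold fall from day 1 to day 14 (Log2FC -2.08, SE 0.06, adjusted p = 8.7e-21). *Fzd1* alternated, at 179 and 180.0 CPM on day 1, 96.6 and 93.2 on day 7, 152 and 154 on day 10 and 84.2 and 89.7 on day 14. Its fall from day 1 to day 14 was close to the fold threshold (Log2FC -1.04, SE 0.04, adjusted p = 5.6e-18) and came to -0.99 without replicate 1 of day 14. The other 6 tested receptors stayed within the fold threshold between day 1 and day 14, with Log2FC values from -0.78 for *Fzd6* to 0.52 for *Fzd7*.

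The 2 coreceptors moved apart. *Lrp5*, whose activating and inactivating mutations cause high and low bone mass, was at 65.6 and 62.4 CPM on day 1, 210.4 and 206 on day 7, 239 and 240.5 on day 10 and 381 and 390.0 on day 14. It was higher at each successive day, 6.03-fold in all (Log2FC 2.57, SE 0.04, adjusted p = 1.8e-27). *Lrp6* was at 230.5 and 213 CPM on day 1, 152 and 147 on day 7, 189 and 185 on day 10 and 171 and 149 on day 14, lower on day 14 by less than the fold threshold (Log2FC -0.47, SE 0.05, adjusted p = 3.6e-09).

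Among R-spondins and their receptors, ligand transcripts were lower and *Lgr6* was higher on day 14 than on day 1. *Rspo3* was at 24.9 and 27.1 CPM on day 1, 6.15 and 6.12 on day 7, 15.4 and 17.3 on day 10 and 8.95 and 9.92 on day 14. Day 1 was thus the highest and day 7 the lowest, and the fall from day 1 to day 14 was 2.75-fold (Log2FC -1.37, SE 0.09, adjusted p = 3.3e-13). *Rspo2* followed 10.1 and 8.19 CPM on day 1 with 2.4 and 2.18 on day 7 (Log2FC -1.62, SE 0.12, adjusted p = 4.9e-12), 4.47 and 5.0 on day 10 and 5.42 and 5.01 on day 14, where the difference from day 1 was within the fold threshold (Log2FC -0.7, SE 0.12, adjusted p = 8.4e-06). *Lgr6* was higher after every step, from 19.1 and 18.3 CPM on day 1 to 57.2 and 57.4, 139 and 139 and 239.7 and 225 on days 7, 10 and 14 (12.4-fold, Log2FC 3.57, SE 0.05, adjusted p = 7.8e-29), although its last step did not reach the fold threshold (Log2FC 0.73). *Lgr5*, known as an intestinal stem cell marker, was at 1.89 and 1.41 CPM on day 1, 0.33 and 0.282 on day 7, 0.295 and 0.0967 on day 10 and 0.117 and 0.145 on day 14, and exceeded the filter on day 1 alone. Of the 3 receptors *Lgr4* differed least, from 37.1 and 36.2 to 45.6 and 47.5 CPM (Log2FC 0.34, SE 0.06, adjusted p = 5.7e-06).

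The antagonists held the largest rise of the family by Log2FC. *Wif1*, a secreted protein that binds Wnt ligands, was at 6.97 and 5.21 CPM on day 1, 282 and 293 on day 7, 125 and 128 on day 10 and 251 and 266 on day 14. All later libraries lay far above those of day 1 (42.5-fold on day 14, Log2FC 5.21, SE 0.07, adjusted p = 9.3e-29), with a dip on day 10 (Log2FC -1.18, SE 0.07, adjusted p = 9.9e-14). *Sfrp2*, another secreted ligand-binding protein, did the opposite. Its libraries held 233 and 237 CPM on day 1, 32.6 and 30.5 on day 7, 33.9 and 36.5 on day 10 and 53 and 56.7 on day 14, a 4.28-fold fall from day 1 to day 14 (Log2FC -2.08, SE 0.05, adjusted p = 1.9e-22). *Dkk3*, a divergent Dickkopf protein, also fell from 59.8 and 62 CPM on day 1 to 17.1 and 20.5 on day 7, and remained at 25.8 and 24.2 on day 10 and 19.7 and 18 on day 14 (Log2FC -1.64, SE 0.07, adjusted p = 1.2e-16). *Dkk1*, the Dickkopf protein that blocks LRP5 and LRP6, was at 0.059 and 0 CPM on day 1, 0.60 and 0.563 on day 7, 0.23 and 0.548 on day 10 and 1.69 and 1.31 on day 14. It stayed a low transcript throughout and exceeded the filter on day 14 alone, so its difference from day 1 is given as values only.

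Of the nuclear effectors, *Tcf7*, which encodes TCF1, rose and *Lef1* fell. *Tcf7* libraries were at 111 and 111 CPM on day 1, 615 and 613 on day 7, 483 and 494 on day 10 and 382 and 390.1 on day 14. The peak on day 7 was 5.54-fold above day 1 (Log2FC 2.46, SE 0.03, adjusted p = 1.1e-27) and day 14 was 3.49-fold above it (Log2FC 1.79, SE 0.03, adjusted p = 7.1e-25). *Lef1* was at 17.6 and 17.8 CPM on day 1, 12.8 and 10.5 on day 7, 17.6 and 15.6 on day 10 and 5.95 and 6.14 on day 14, so that its fall lay in the last step (Log2FC -1.32, SE 0.1, adjusted p = 8.9e-12). *Ctnnb1* was at 1429 and 1406 CPM on day 1, 2254 and 2275 on day 7, 3013 and 3156 on day 10 and 2426 and 2366 on day 14, with all later libraries above those of day 1, and on day 14 by less than the fold threshold (Log2FC 0.76, SE 0.04, adjusted p = 5.9e-15). *Tcf7l1* was at 43.6 and 41.5 CPM on day 1 and 42.7 and 41.1 on day 14 (Log2FC -0.02, SE 0.06, adjusted p = 0.73), and *Tcf7l2* differed by a Log2FC of -0.56.

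*Axin2* and *Notum* are transcripts that beta-catenin is known to induce and whose products dampen the pathway. Both had their highest mean on day 10, although the *Axin2* libraries of days 7 and 10 were close. *Axin2* was at 15.1 and 13.1 CPM on day 1, 27.9 and 26.7 on day 7, 27.9 and 29.3 on day 10 and 15.1 and 14.7 on day 14. The libraries of days 7 and 10 lay above all of those of days 1 and 14, by less than the fold threshold (Log2FC 0.91, SE 0.08, adjusted p = 7.2e-11 from day 1 to day 7, and Log2FC -0.9, SE 0.08, adjusted p = 1.8e-10 from day 10 to day 14), and days 1 and 14 overlapped (Log2FC 0.08, SE 0.08, adjusted p = 0.35). The rise to day 7 just passed without replicate 1 of day 1 (1.01). *Notum*, a secreted enzyme that removes the lipid from Wnt ligands, was at 1.62 and 2.04 CPM on day 1, 11.7 and 9.93 on day 7, 29.1 and 34.1 on day 10 and 8.51 and 8.5 on day 14. It rose in each of the first 2 steps (Log2FC 2.06, SE 0.11, adjusted p = 3.3e-15, then Log2FC 1.47, SE 0.11, adjusted p = 1.2e-11) and fell in the last (Log2FC -1.77, SE 0.11, adjusted p = 2.0e-13), ending 4.65-fold above day 1. An antisense gene, Notumos, overlaps *Notum* and did not exceed 2.675 CPM. The Naked homologues stayed within the fold threshold, with day 14 against day 1 at a Log2FC of 0.54 for *Nkd1* and -0.67 for *Nkd2*.

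**Figure D2:**
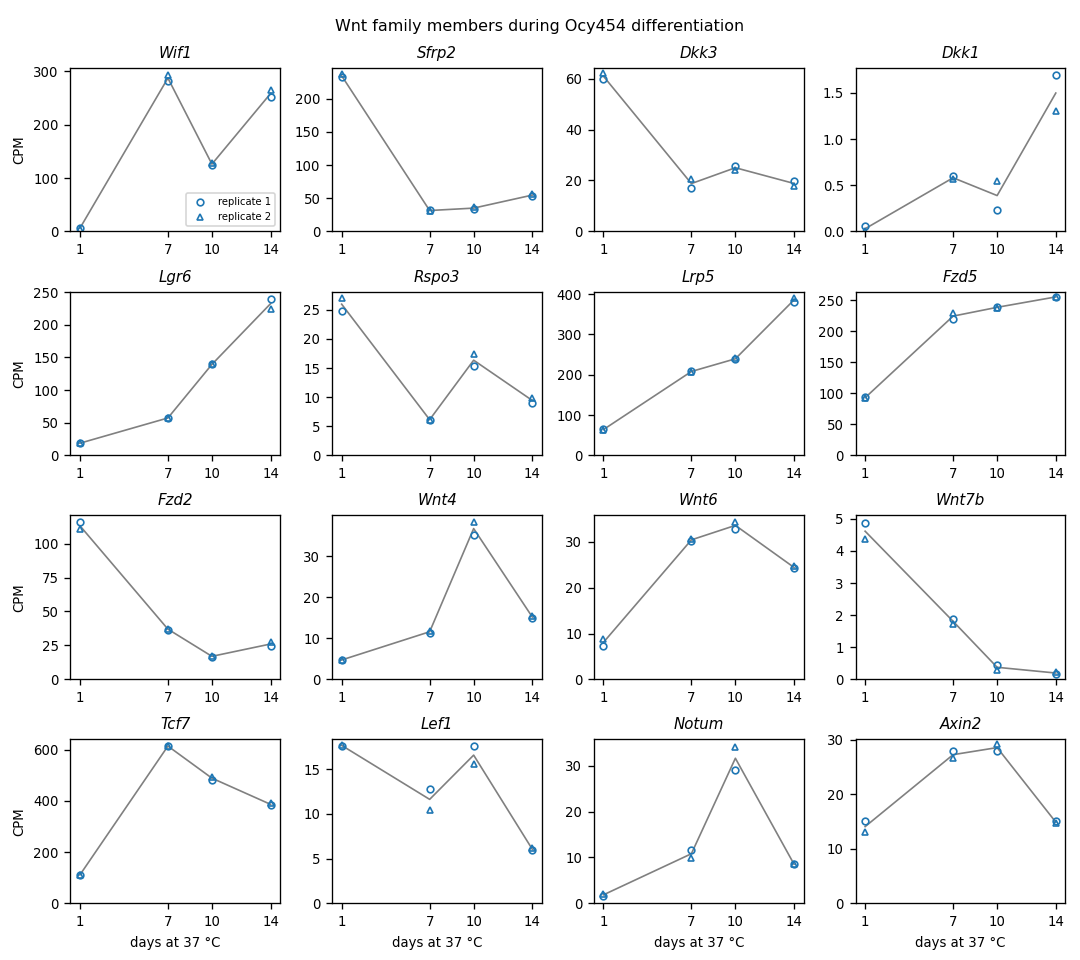
CPM of 16 members against days at 37 °C, each panel with its own linear axis from 0; circles and triangles are the 2 replicates and the line joins the means. *Lrp5* and *Lgr6* climb to day 14, *Wif1* and *Tcf7* are highest on day 7, *Notum* and *Wnt4* on day 10, and *Sfrp2* and *Fzd2* on day 1.

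Because *Axin2*, *Nkd1*, *Nkd2* and *Notum* are read as reporters of beta-catenin, their promoters were searched for the core that TCF and LEF proteins recognise. The word CTTTGAA, and the same word with AT, TA or TT as its last letters, were looked for on both strands from 250 bases before to 50 bases after the canonical start in the GENCODE M39 annotation of GRCm39. At least 1 was present in 3 of the 4, each shown here 5′ to 3′ on the strand of the gene with the word in capitals.
Axin2: tcggctcgcgcCTTTGAAgtgcacagttaa
Nkd1: gtccgcctcgcCTTTGATgggccgctgccg
Notum: gtccgccgccgCTTTGATcccgggggcccc
The *Axin2* stretch is chr11:108811605-108811634 (plus strand), with the word starting at -22 from the start of transcription. The *Nkd1* stretch is chr8:89247888-89247917 (plus strand, word at -26), and that of *Notum* is chr11:120552054-120552083 (minus strand, word at -53). Exons of other annotated transcripts cover 9 of the 30 bases for *Axin2*, 28 for *Nkd1* and, from the antisense gene Notumos, all 30 for *Notum*. The *Nkd2* window held none of these words. Over all 57 members 11 windows (19.3%) held a word, beside 16.4% of 21770 windows of protein-coding genes. The RefSeq windows of *Axin2*, *Nkd1* and *Nkd2*, which rest on another annotation and assembly (GRCm38.p6), held no word. A match describes letters in a window and not a bound site.

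Which members differed between CD61high and CD61low cells? In the sort, 10 of 36 tested members were higher in CD61high cells and 3 were lower (edgeR quasi-likelihood test, the same thresholds), where 4.84% and 4.37% of all 12077 tested genes were. Scaling by library size alone, which moves the median Log2FC of all genes to -0.29, gave 8 higher and 8 lower, beside 2.62% and 8.0% of all 12045 genes tested that way, so the balance of the 2 directions depends on the scaling. The median over the members was 0.30 under TMM and -0.01 under library size. The members higher in CD61high cells were *Lgr6*, *Notum*, *Wif1*, *Sfrp2*, *Lrp5*, *Tcf7*, *Wnt5b*, *Fzd5*, *Tcf7l1* and *Ctnnb1*, and those lower were *Rspo3*, *Wnt11* and *Dkk3*. The 8 higher members other than *Tcf7l1* and *Ctnnb1* passed under both scalings.

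*Wnt5b* was the ligand higher in CD61high cells. It measured 3.3, 2.72 and 3.27 CPM in the 3 CD61low libraries and 9.21, 8.75 and 7.06 in the 3 CD61high libraries, with no overlap (2.69-fold, Log2FC 1.43, SE 0.17, adjusted p = 8.4e-05). *Wnt5b* overlaps *Fbxl14*, at up to 121 CPM, on the opposite strand. *Wnt6* lay just under the fold threshold, at 19.1, 18.3 and 16.1 CPM in CD61low and 29.7, 37.7 and 39.6 in CD61high cells (Log2FC 0.999, SE 0.12, adjusted p = 8.5e-05), and passed with an offset for transcript length (1.14) and in 3 of the 6 fits that left out 1 library (1.01 to 1.11, without CD61low replicate 1 or 2 or CD61high replicate 1). *Wnt5a* was lower, at 7.94, 8.54 and 11.5 CPM in CD61low and 5.63, 5.24 and 4.0 in CD61high libraries without overlap, and also lay under the fold threshold (Log2FC -0.91, SE 0.19, adjusted p = 0.0029). It passed with library-size scaling (-1.21), without CD61low replicate 1 (-1.02) and without CD61high replicate 1 (-1.01). *Wnt11* was lower in CD61high cells, at 0.469, 1.04 and 0.412 CPM against 2.39, 1.45 and 2.15 (Log2FC -1.63, SE 0.38, adjusted p = 0.0049), a call that was lost in 4 of the 6 fits that left out 1 library (adjusted p = 0.010 to 0.023, without CD61low replicate 1 or 3 or CD61high replicate 1 or 3). The call was also lost with the replicate number as a block (adjusted p = 0.014) and with the offset for transcript length (adjusted p = 0.015). *Wnt4*, which rose during differentiation, was at 21.1, 17.1 and 14.5 CPM in CD61low and 12.6, 12.7 and 13 in CD61high cells (Log2FC -0.46, SE 0.14, adjusted p = 0.019), and *Wnt10b* at 61, 56.6 and 61.9 and 95.4, 97.6 and 96.6 CPM (Log2FC 0.69, SE 0.07, adjusted p = 2.1e-05).

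Of the receptors only *Fzd5* passed both thresholds with TMM scaling and all 6 libraries. It was at 108, 91.9 and 124 CPM in CD61low and 298, 244 and 264 in CD61high libraries (2.49-fold, Log2FC 1.31, SE 0.11, adjusted p = 8.9e-06). *Fzd6*, *Fzd4*, *Fzd2* and *Fzd1* had adjusted p values below 0.01 in the other direction with Log2FC values of -0.97, -0.95, -0.75 and -0.65. With library-size scaling *Fzd6*, *Fzd4* and *Fzd2* passed as lower, at -1.28, -1.25 and -1.05, so that 1 receptor was higher and 3 were lower. Under TMM *Fzd6* also passed without CD61low replicate 1 (-1.05) and without CD61high replicate 3 (-1.01). *Lrp5* was at 183, 153 and 192 CPM in CD61low and 543, 493 and 532 in CD61high cells, with every CD61high library above every CD61low library (2.97-fold, Log2FC 1.57, SE 0.09, adjusted p = 7.2e-07). *Lrp6* overlapped between the groups, at 136, 148 and 185 and 179, 130.0 and 159 CPM (Log2FC -0.0017, SE 0.13, adjusted p = 0.99). Per length, *Lrp5* stood at 74.3 ± 6.68 TPM, transcript abundance scaled per length and library, in CD61low and 188 ± 4.01 in CD61high cells (SD, n = 3), and *Lrp6* at 39.5 ± 8.82 and 28.9 ± 7.52 TPM.

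*Lgr6* had the largest positive difference of the family. It was at 173, 139.9 and 192 CPM in CD61low and 851, 701 and 737 CPM in CD61high libraries (4.53-fold, Log2FC 2.18, SE 0.12, adjusted p = 5.5e-07). *Lgr4*, its relative, was at 21.2, 22.6 and 28.5 and 39.5, 33.4 and 37.5 CPM, a difference within the fold threshold (Log2FC 0.61, SE 0.12, adjusted p = 0.0018). Both R-spondins above 1 CPM, *Rspo2* and *Rspo3*, had lower values in CD61high cells. *Rspo3* was at 14.6, 11.9 and 10.7 CPM in CD61low and 3.29, 4.89 and 3.12 in CD61high cells (3.29-fold lower, Log2FC -1.72, SE 0.2, adjusted p = 5.9e-05). *Rspo2* was at 11.7, 11.4 and 10.7 CPM in CD61low libraries and 0.293, 0.864 and 0.235 in CD61high libraries, a separation outside the filter because not every CD61high library reached 5 normalized counts. With no filter on low counts it passed (Log2FC -4.58, SE 0.29, adjusted p = 4.4e-09 in edgeR), which made 4 members lower.

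Among the antagonists, *Wif1* and *Sfrp2* were higher and *Dkk3* was lower in CD61high cells. *Wif1* was at 72.4, 52.3 and 66.7 CPM in CD61low and 229.6, 222 and 217 in CD61high libraries (3.49-fold, Log2FC 1.81, SE 0.11, adjusted p = 8.5e-07). *Sfrp2* was at 36, 31.1 and 27.4 and 104.1, 105 and 98.1 CPM (3.25-fold, Log2FC 1.7, SE 0.1, adjusted p = 7.0e-07). For both, the lowest CD61high library lay above the highest CD61low library. *Dkk3* was at 13.6, 15.2 and 13.3 CPM in CD61low and 6.04, 8.0 and 6.53 in CD61high cells (Log2FC -1.03, SE 0.14, adjusted p = 1.7e-04), near the fold threshold, and came to -0.98 without CD61low replicate 2 and -0.95 without CD61high replicate 1. *Dkk1* was at 0.67, 0.328 and 0.439 and 0.704, 1.27 and 0.824 CPM and did not pass (Log2FC 0.95, SE 0.4, adjusted p = 0.069).

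All 3 nuclear effectors that passed were higher in CD61high cells. *Tcf7* was at 225, 200.1 and 229 CPM in CD61low and 598, 596 and 610.1 in CD61high libraries (2.76-fold, Log2FC 1.46, SE 0.07, adjusted p = 3.4e-07). Both of its abundant transcripts were higher in CD61high cells, ENSMUST00000086844 at 103 ± 6.24 and 235 ± 3.42 TPM and ENSMUST00000109071 at 82.1 ± 12.1 and 178 ± 24.0 TPM in CD61low and CD61high cells (SD, n = 3). *Tcf7l1*, a TCF protein best known as a repressor, was at 93.9, 86.2 and 96.3 and 195, 204 and 191 CPM (Log2FC 1.09, SE 0.07, adjusted p = 1.3e-06). *Ctnnb1* was at 861, 816 and 868 CPM in CD61low and 1778, 1668 and 1750.0 in CD61high cells (Log2FC 1.03, SE 0.07, adjusted p = 1.3e-06). *Tcf7l1* and *Ctnnb1* fell under the fold threshold with library-size scaling, at 0.79 and 0.73, *Tcf7l1* also with the offset for transcript length, at 0.91, and *Ctnnb1* also without CD61low replicate 2, at 0.9954. *Lef1* was at 10.5, 9.81 and 8.84 and 10.9, 12.8 and 12.1 CPM (Log2FC 0.29, SE 0.13, adjusted p = 0.077).

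The feedback targets divided in the sort. *Notum* was at 7.08, 4.08 and 6.64 CPM in CD61low and 18.8, 23.4 and 22.5 in CD61high libraries (3.64-fold, Log2FC 1.86, SE 0.19, adjusted p = 2.2e-05). *Axin2*, at 12.8, 12.6 and 14.6 and 25.2, 24.4 and 28.5 CPM, did not overlap between the groups and lay just under the fold threshold (Log2FC 0.97, SE 0.11, adjusted p = 4.3e-05). It passed with an offset for transcript length (1.33), without CD61low replicate 3 (1.02) and without CD61high replicate 2 (1.01). *Nkd1* was at 16.4, 19.8 and 18.8 CPM in CD61low and 10.1, 11.2 and 13.4 in CD61high cells (Log2FC -0.67, SE 0.13, adjusted p = 0.0019), and *Nkd2* at 9.23, 8.59 and 8.01 and 4.17, 6.39 and 4.41 CPM (Log2FC -0.79, SE 0.18, adjusted p = 0.0048), so that the direction of the Naked homologues was opposite to that of *Notum* and *Axin2*. *Nkd2* passed as lower with library-size scaling (-1.09) and without CD61high replicate 2 (-1.0).

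**Figure D3:**
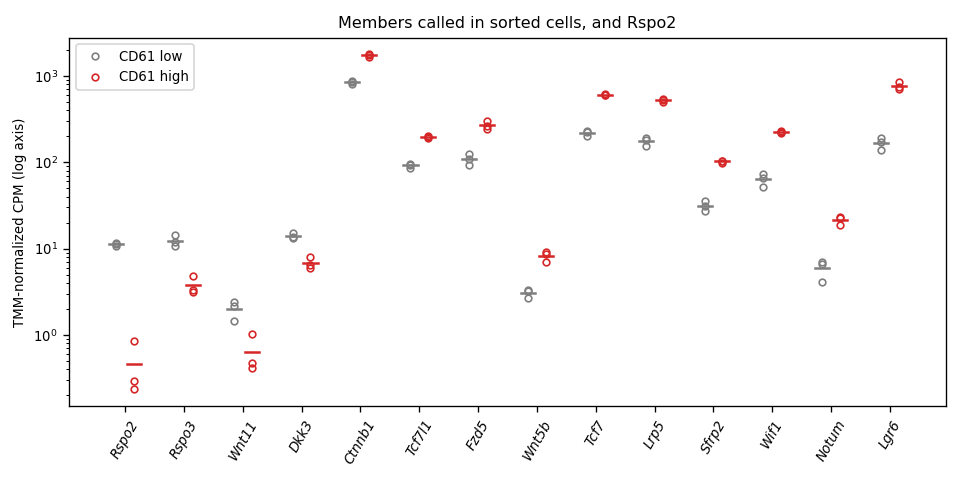
TMM-normalized CPM (log axis) in each CD61low (grey) and CD61high (red) library for the 13 members past both thresholds and for *Rspo2*, which the filter left out; the bars are means of 3. The libraries of the groups do not overlap for any gene shown, and *Rspo2* has the widest gap.

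Across both experiments, 22 members passed in the differentiation comparison of day 14 with day 1 or in the sort, and 9 passed in both. Of these 9, 8 had the same direction. *Wif1*, *Lgr6*, *Lrp5*, *Tcf7*, *Notum* and *Fzd5* were higher on day 14 and in CD61high cells, and *Rspo3* and *Dkk3* were lower in both. *Sfrp2* was the exception, with a Log2FC of -2.08 on day 14 against day 1 and 1.7 in CD61high against CD61low cells. Over all genes, 569 of 596 (95.5%) that passed in both had the same direction, so that 8 of 9 is near the background. With a pseudocount of 0.1, *Wnt11* would be a second exception, higher on day 14 and lower in CD61high cells. *Wnt4* had values of 1.5 and -0.46, *Wnt11* of 0.64 and -1.63, *Lef1* of -1.41 and 0.29, and *Tcf7l1* of -0.02 and 1.09 in the same order. The experiments were quantified and scaled separately and share no libraries, and their differences were not tested against each other.

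**Figure D4:**
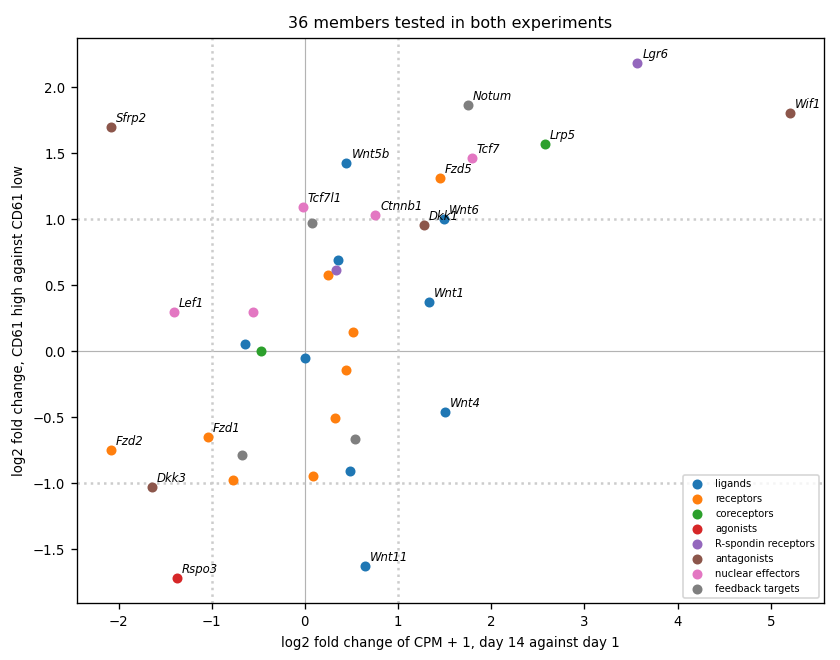
Log2FC of day 14 against day 1 (log2(CPM + 1) scale, horizontal) and of CD61high against CD61low (vertical) for the 36 members tested in both, coloured by role; dotted lines mark 1 and -1, and names are given past 1 in size on either axis. *Lgr6*, *Wif1*, *Lrp5*, *Notum*, *Tcf7* and *Fzd5* lie in the upper right, *Rspo3* and *Dkk3* in the lower left and *Sfrp2* alone in the upper left past both lines.

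How did the rest of the pathway behave? Of 61 further genes listed by role, 56 were tested in each experiment. Between day 1 and day 14, 7 rose and 4 fell, beside 7.51% and 5.9% of all genes, and in the sort 8 were higher and 2 were lower, beside 4.84% and 4.37%. With library-size scaling the split in the sort turned to 3 higher and 4 lower, beside 2.62% and 8.0% of all genes. The 3 Dishevelled genes and the 9 genes of the beta-catenin destruction complex stayed within the fold threshold in both comparisons, with Log2FC values from -0.65 (*Btrc*) to 0.75 (*Dvl1*) on day 14 against day 1 and from -0.34 (*Csnk1a1*) to 0.37 (*Apc2*) in the sort. *Wls*, which carries Wnt ligands to the cell surface, was at 223 and 219 CPM on day 1 and 209 and 221 on day 14 (Log2FC -0.04, SE 0.04, adjusted p = 0.35). *Porcn*, the enzyme that acylates Wnt ligands, was at 36.3 and 38.7 CPM on day 1 and 24.7 and 25.4 on day 14 (Log2FC -0.56, SE 0.08, adjusted p = 5.1e-07), and at 13.2, 15.5 and 13.7 in CD61low and 25.3, 24.1 and 27 in CD61high cells (Log2FC 0.85, SE 0.1, adjusted p = 7.9e-05).

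Outside the family, coreceptor and ligand antagonists moved in both directions. Of 5 tested, 2 rose and 2 fell by day 14, beside 7.51% and 5.9% of all genes. *Frzb* rose by a Log2FC of 1.07, near the fold threshold, and came to 0.989 without replicate 2 of day 14. *Sost* had no reads on day 1 and 0.66 and 0.669, 3.45 and 3.26 and 18 and 17.3 CPM on days 7, 10 and 14 (Log2FC 4.22, SE 0.13, adjusted p = 1.1e-20). In sorted cells it was at 17.6, 14.3 and 15.8 CPM in CD61low and 41.7, 34.5 and 33.1 in CD61high libraries (Log2FC 1.2, SE 0.12, adjusted p = 1.9e-05, and 0.90 with library-size scaling). *Igfbp4*, which can bind LRP6, fell from 377 and 364 CPM on day 1 to 101 and 108 on day 14 (Log2FC -1.82, SE 0.04, adjusted p = 1.5e-22), and *Apcdd1* from 16.3 and 17.3 to 6.03 and 6.94 CPM (Log2FC -1.25, SE 0.09, adjusted p = 4.9e-12). In the sort *Igfbp4* had a Log2FC of -0.97. It passed as lower with library-size scaling (-1.27), without CD61low replicate 3 (-1.09) and without CD61high replicate 2 (-1.05). *Apcdd1* libraries overlapped there, at 7.99, 3.19 and 7.96 CPM in CD61low and 5.4, 9.21 and 9.65 in CD61high cells. *Rnf43*, a ubiquitin ligase that removes Frizzled receptors from the surface and is countered by R-spondins, rose from 10.2 and 10.3 to 46.2 and 45.4 CPM (Log2FC 2.06, SE 0.07, adjusted p = 6.4e-20) and was at 11.6, 11.3 and 15.5 CPM in CD61low and 39.2, 35.7 and 40.9 in CD61high cells (Log2FC 1.59, SE 0.13, adjusted p = 5.1e-06).

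Of the 12 further target genes, 11 were tested, and 2 rose and 1 fell by day 14, counts near the 7.51% and 5.9% of all genes. *Tnfrsf11b*, which encodes the osteoclast inhibitor osteoprotegerin, was at 15.1 and 13 CPM on day 1, 241 and 213 on day 7, 79.5 and 83.7 on day 10 and 96.5 and 112 on day 14 (Log2FC 2.81, SE 0.07, adjusted p = 5.5e-23). Like *Wif1* and *Tcf7*, it was highest on day 7. *Bambi* rose from 11.1 and 11.8 to 149.7 and 169.7 CPM (Log2FC 3.69, SE 0.06, adjusted p = 2.6e-27), and *Ccn5* fell from 110.2 and 109 to 15.4 and 18.6 CPM (Log2FC -2.63, SE 0.08, adjusted p = 4.4e-20). All 3 kept their direction in the sort, with Log2FC values of 1.41, 1.16 and -2.08 (adjusted p = 1.8e-05, 1.2e-05 and 2.7e-05 in edgeR), although *Bambi* came to 0.86 with library-size scaling. A further target, the cyclin gene *Ccnd1*, was higher in the sort, at 36.3, 38.9 and 38.6 CPM in CD61low and 76.3, 80.7 and 79.1 in CD61high libraries (Log2FC 1.05, SE 0.07, adjusted p = 1.6e-06), and came to 0.75 with library-size scaling. It was at 136 and 140 CPM on day 1 and 104.4 and 102 on day 14 (Log2FC -0.42, SE 0.05, adjusted p = 6.1e-09). The nuclear corepressor *Tle2* fell from 35.8 and 36.9 to 9.65 and 9.16 CPM (Log2FC -1.84, SE 0.08, adjusted p = 1.9e-17). In the sort *Tle2* went the other way without being called, at 23.4, 19.7 and 23.6 CPM in CD61low and 30.3, 33.6 and 33 in CD61high libraries. Of the planar polarity genes, *Prickle2* rose from 6.64 and 5.71 to 23.3 and 23.4 CPM (Log2FC 1.77, SE 0.1, adjusted p = 2.9e-14) and was higher in CD61high cells (Log2FC 1.36, SE 0.14, adjusted p = 2.4e-05), and *Celsr3* rose from 0.502 and 0.408 to 2.86 and 2.0 CPM (Log2FC 1.23, SE 0.15, adjusted p = 5.1e-08). *Daam2* had a Log2FC of -0.97 on day 14 against day 1 and 1.08 in the sort (adjusted p = 8.7e-06 in edgeR, and 0.78 with library-size scaling). The alternative receptor *Ror1* was at 0.957, 1.41 and 1.51 CPM in CD61low and 0.352, 0.345 and 0.412 in CD61high cells (Log2FC -1.79, SE 0.35, adjusted p = 0.002). Its CD61high values rest on 6, 6 and 7 counts.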

How the data were processed

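Polyadenylated RNA of 14 libraries was analysed, 8 from the differentiation experiment and 6 from the CD61 sort. For the former the authors aligned reads with STAR, counted them per gene with HTSeq-count and deposited CPM values and gene lengths; the genome build and strand setting of this table are not given in the sources used here. The reads behind the CPM values could be recovered, as 100% of them were whole to within 0.01 of a read, and edgeR on these reads called 2292 genes between day 1 and day 14 where limma called 1707. For the sort the authors ran Salmon against GRCm39 and deposited estimated counts and TPM values per transcript. RNA was extracted with different kits in the 2 experiments, so levels were compared only within an experiment.

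Differentiation values were tested as log2(CPM + 1) with limma 3.58.1 (trended eBayes, all 8 libraries in 1 fit) for genes above 1 CPM in at least 1 library. Estimated counts of the sort were summed per gene with GENCODE M39, rounded, scaled by TMM over all genes and tested with edgeR 4.0.16 (quasi-likelihood) where each of the 6 libraries held 5 or more normalized counts of the gene; of the counts 99.3% to 99.4% lay on matched transcripts. Benjamini-Hochberg adjustment ran over all genes tested, and a gene was called where its adjusted p was under 0.01 and its Log2FC was past 1 in either direction. For limma the SE is the moderated one of the fit. For edgeR it was worked back from the test, as the absolute Log2FC divided by the square root of the F statistic. The scripts were tested on simulated data. R 4.3.3, Python 3.11.15, pandas 2.3.3 and matplotlib 3.10.9 were used. Promoter words were read from GRCm39.

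Alternatives were a pseudocount of 0.1, other filters, other scalings, edgeR or DESeq2 1.42.0, a threshold of 0.05 on the adjusted p, testing against a Log2FC of 1, correcting for transcript length by an offset, blocking on the replicate number and omitting libraries 1 at a time. The chi-square per gene between libraries of a group was 2.35 to 20.8, above counting noise, and they were kept as separate replicates. Values per library were given for up to 25 members that passed in day 14 against day 1 or in the sort, plus *Ctnnb1*, *Lrp5*, *Lrp6* and *Axin2*, and for up to 12 of 61 other pathway genes, plus *Sost*, *Tnfrsf11b*, *Wls* and *Porcn*. Other genes given with values (*Wnt2b*, *Wnt5a*, *Wnt9a*, *Wnt10b*, *Fzd4*, *Fzd6*, *Fzd7*, *Rspo2*, *Lgr4*, *Tcf7l2*, *Nkd1*, *Nkd2*, *Ccnd1*, *Frzb*, *Btrc*, *Csnk1a1*, *Dvl1* and *Apc2*) were chosen after their values were seen. The members and lists were chosen with earlier results of these data known. Flow cytometry, the CRISPR screen and the other experiments of the study were not analysed here.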

Additional observations from a re-analysis of the deposited data

How the results depend on the processing

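Over 98 differences of the genes named by rule (those that passed, and *Ctnnb1*, *Lrp5*, *Lrp6*, *Axin2*, *Sost*, *Tnfrsf11b*, *Wls* and *Porcn* whether or not they did), 1224 of 1267 alternative values kept their direction and side of the thresholds, 36 no longer passed, 3 newly passed and 4 changed sign. Since most of the 98 were chosen for passing, they say little of new calls. Some of the 1267 values also had little or no room to change. The looser threshold on the adjusted p cannot lose a call. Between days, other filters, a fit on only the days compared and the replicate block leave the Log2FC of a tested gene unchanged. Only its adjusted p can move there. Such values count among the 1224, which therefore overstates how far the results were put to the test. Over all members, 39 alternative values on 16 genes gained a call and 26 on 11 genes lost one. Over the other pathway genes, 24 on 9 genes gained a call and 19 on 12 genes lost one. The 4 changes of sign were small values that passed in no fit: *Axin2* between day 1 and day 14 (-0.0147 to 0.1747 with 1 library left out, the former without replicate 2 of day 1), *Wls* in the same comparison (-0.0825 to 0.0027, the latter without replicate 1 of day 14), and *Lrp6* in the sort (-0.1124 to 0.117, with 0.117 without CD61low replicate 3 and 0.1141 without CD61high replicate 2). In the sort, testing against a Log2FC of 1 left 6 members higher, 0 lower and 2 other pathway genes, since it asks for differences beyond the threshold itself, and scaling by library size alone gave 8 members lower. No member passed as lower in that stricter test by edgeR, where 3 pass the thresholds as used here and 3 pass in DESeq2. Leaving out 1 library at a time gave 10 to 11 members higher and 2 to 4 lower in the sort, 9 to 12 other pathway genes, and 10 members higher and 7 to 8 lower between day 1 and day 14. It gave 15 to 17 members between days 1 and 7, 7 to 8 between days 7 and 10, and 3 to 5 between days 10 and 14. The cause of these moves was not tested.

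Over all genes, calls rose from 282 to 552 (pseudocount of 0.1) or 550 (edgeR on recovered reads) between days 7 and 10, and from 377 to 671 or 731 between days 10 and 14. In the sort they fell from 1113 to 401 when testing against a Log2FC of 1. Although both gates were sorted from the same 3 groups of cells, the sources used here do not tie the replicate numbers to those groups, and the numbers did not pair the samples in the data: same-numbered libraries of the sort had correlations of -0.32, 0.22 and -0.06, and those of the differentiation experiment of -0.03 to 0.06. With the replicate number as a block, 10 members were higher and 2 lower in the sort (*Wnt11*, adjusted p = 0.014 in edgeR), 1083 of all genes passed, and between day 1 and day 14 the counts were 10 and 8. Genes under about 1 CPM rest on few reads, which limits the members *Dkk1*, *Lgr5*, *Wnt7b* and *Wnt11*, and *Ror1* outside the family.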
